A study of Mus musculus with 6 samples.

Results

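The genes described here encode the machinery that carries a signal inside the cell once an antigen receptor has been engaged. They are 33 genes named as kinases, adaptors, phosphatases and cytoskeletal regulators of T cells, B cells and myeloid cells, and every non-control probe that the array assigns to one of them was taken. This gave 81 of the 56605 probes on the array and 33 of its 36870 gene names. RNA came from whole kidneys of female mice at 6 months of age. The control group was MRL/MpJ (MRL mice, n = 3), and the other was MRL/MpJ-Fas lpr/lpr (LPR mice, n = 3), a strain in which the lymphocytes accumulate and a lupus-like kidney disease develops. Both strains share the MRL/MpJ background, and the lpr mutation of the death receptor gene Fas is carried in the germline, so that it is not restricted to a cell type. The question behind the comparison is how the transcripts of the LPR kidney, where lymphoid clusters form around vessels, differ from those of the control strain. In RNA of a whole kidney, more cells of a type and more RNA per cell cannot be told apart.

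An antigen receptor has no enzyme of its own. A kinase of the Src family, such as Lck in T cells or Lyn in B cells, phosphorylates the tails of the receptor complex, and a second kinase, Zap70 in T cells or Syk in B cells and myeloid cells, docks there and phosphorylates adaptors such as Lat, Lcp2 and Blnk. These scaffolds gather phospholipase C, Tec kinases such as Btk, and exchange factors such as Vav1, and the signal then spreads to calcium, protein kinase C, NF-kappaB and the actin cytoskeleton. Phosphatases set the threshold: Ptprc (CD45) removes the inhibitory phosphate that Csk puts on Src kinases, while Ptpn6 and Inpp5d end the signal.

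Values are log2 intensities relative to the 75th percentile of each array, so that 0 is the level below which 75 percent of the spots lie. A change is LPR minus MRL on this scale, and a call rests on limma, with p-values adjusted by Benjamini-Hochberg across the 39924 probes tested and a threshold of 0.05. The brightest tested probe stands for a gene. Levels of different probes are not compared, since their binding differs. All tested probes together had a median change of -0.14, and the changes below are to be read against it. Between 69.6% and 73.5% of the spots of an array were well above background and none was saturated. Fas was not a clean check of the labels: its brighter probe had a change of -0.47 (standard error 0.24, adjusted p = 0.234), and its other probe rose by at least 1.47-fold.

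LPR kidneys had higher levels of 25 of the 33 genes and lower levels of 0, and 8 genes did not pass. Of the 25, 24 had a signal above background in MRL mice too, and Themis did not. Over the 25805 genes tested, 7.12% were higher and 5.47% were lower. At an unadjusted p under 0.05 in limma, 29 of the 33 genes were higher and 0 were lower. At this threshold 3926 of the 39924 probes tested were higher and 8200 were lower, and the share of all genes was not counted. The methods' t-test also gave 0 lower genes among the 33, on log2 and on linear values. The median change was 1.88 (range -0.06 to 3.53), and it was 1.77 with signals below the detection limit raised to it. The LPR mice exceeded every MRL mouse in 29 genes, or 87.9%, against 11.7% of all genes tested. Lck, Lcp2 and Zap70 rose by more than 10-fold. These rises were smaller with normexp background correction, 9.54-fold for Lck, 5.81-fold for Lcp2 and 6.97-fold for Zap70. With each mouse left out in turn, 21 to 24 genes were higher, and 21 of the 25 calls held in each of these 6 fits. The exceptions were Csk, Fyb, Plcg2 and Ptpn22.

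**Figure D1:**
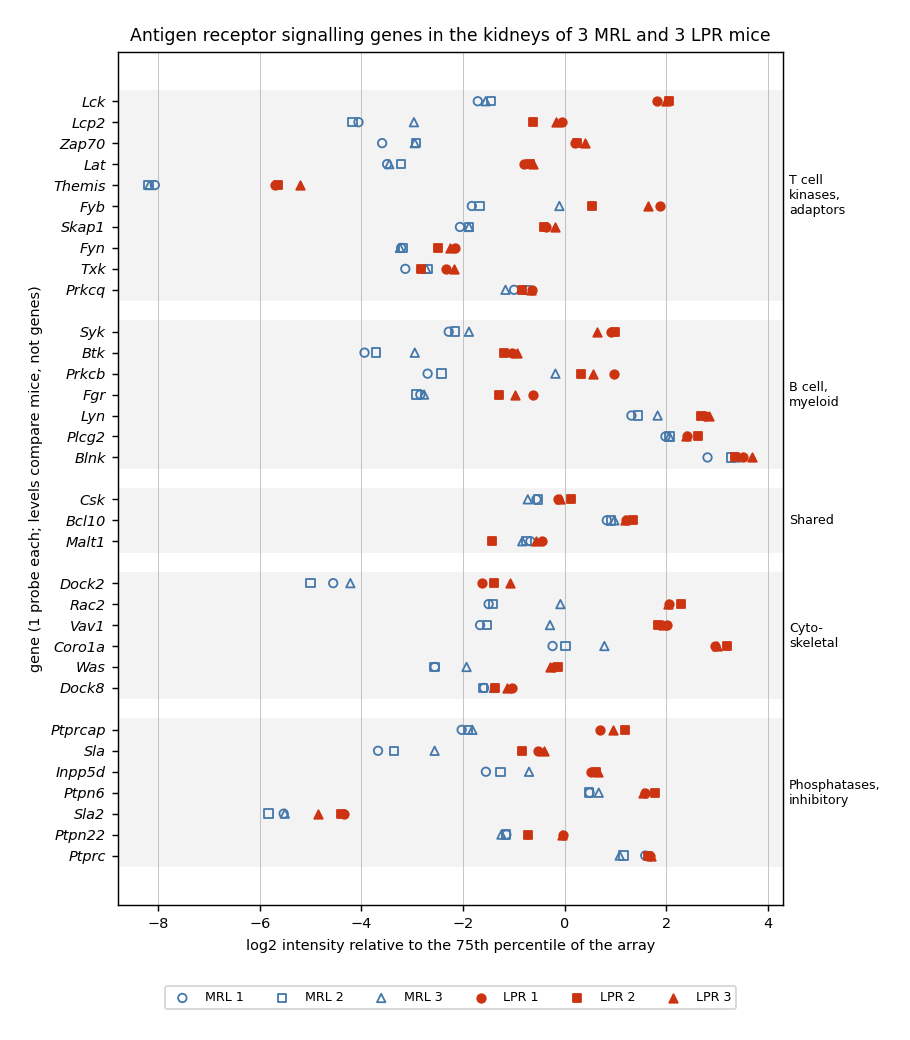
Log2 intensity relative to the 75th percentile of the array (x axis) for the 33 genes (y axis, 1 probe each), with open blue symbols for the 3 MRL mice and filled red symbols for the 3 LPR mice, grouped by role. For Lck the MRL mice lie between -1.71 and -1.45 and the LPR mice between 1.83 and 2.05, whereas for Prkcq, Txk, Blnk and Malt1 the groups overlap.

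**Figure D2:**
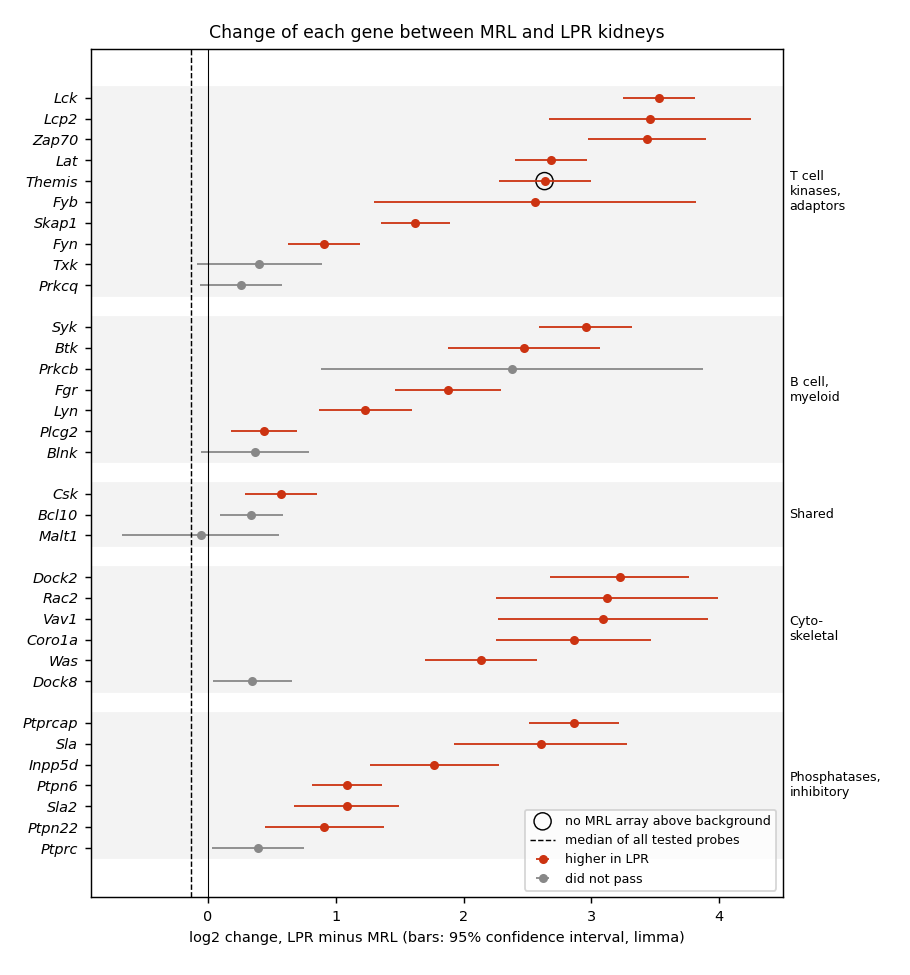
Log2 change between LPR and MRL mice (x axis, bars are 95% confidence intervals from limma) of the same 33 genes (y axis), red where the change passed and grey where it did not, with a dashed line at -0.14, the median of all tested probes. The ring marks Themis, for which no MRL array was above background, so that its point is a fitted value, and the changes run from -0.06 for Malt1 to 3.53 for Lck.

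Among the T cell receptor kinases and adaptors, 8 of 10 genes were higher in LPR mice and 2 did not pass. The median change of the 10 genes was 2.60, between Fyb (2.56) and the fitted value of Themis (2.63). The rise of Themis is known only as at least 1.36-fold, so this median rests in part on values below background. The largest changes of this group were those of Lck, Lcp2 and Zap70. Lck, the Src kinase bound to CD4 and CD8, had log2 intensities of -1.71, -1.45 and -1.55 in MRL 1, 2 and 3 and of 1.83, 2.05 and 2.00 in LPR 1, 2 and 3. The lowest LPR mouse thus lay far above the highest MRL mouse, and the mice of a group were close together. This was an 11.5-fold rise (change 3.53, standard error 0.12, adjusted p = 1.34e-05), and a second, dimmer Lck probe rose by 8.76-fold.

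Zap70, the kinase that docks on the phosphorylated receptor tails, was at -3.59, -2.92 and -2.95 in MRL mice and at 0.20, 0.24 and 0.40 in LPR mice. It rose by 10.8-fold (change 3.43, standard error 0.20, adjusted p = 8.28e-05), and its second probe by 8.94-fold. Lat, the membrane scaffold that Zap70 phosphorylates, was at -3.49, -3.22 and -3.45 in MRL mice and at -0.80, -0.69 and -0.62 in LPR mice, a 6.43-fold rise (change 2.68, standard error 0.12, adjusted p = 2.92e-05). For both genes the groups were well separated, as for Lck.

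Lcp2 (SLP-76), the cytosolic scaffold that binds Lat through a bridge, was at -4.06, -4.17 and -2.97 in MRL mice and at -0.04, -0.61 and -0.16 in LPR mice. MRL 3 stood above the other MRL mice here, though still far below the lowest LPR mouse. The rise was 11.0-fold (change 3.46, standard error 0.33, adjusted p = 0.000884). The other Lcp2 probes were higher too, one of them by at least 3.54-fold, and the probe A_66_P122506 rose by 13.1-fold with 1 of 3 MRL mice above background. That probe lies at chr11:33989677-33990620 (mm9, plus strand), a stretch longer than its 60 bases, so it joins exons and reads spliced RNA. It is shown for that reason, written 5′ to 3′ as on the array.
Lcp2 A_66_P122506: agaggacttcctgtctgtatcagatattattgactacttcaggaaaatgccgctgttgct

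Fyb (ADAP), an adaptor that couples the receptor to integrins, was at -1.83, -1.68 and -0.10 in MRL mice and at 1.88, 0.55 and 1.64 in LPR mice. MRL 3 and LPR 2 came closest to each other, and the groups did not overlap. The rise was 5.89-fold (change 2.56, standard error 0.53, adjusted p = 0.0250), and the call was lost without MRL 1, MRL 2, LPR 1 or LPR 3 (adjusted p up to 0.0797). Skap1, the partner of Fyb, rose by 3.08-fold (change 1.62, standard error 0.11, adjusted p = 0.000208), with MRL mice between -2.06 and -1.88 and LPR mice between -0.41 and -0.19. Fyn, the other Src kinase of the T cell receptor, which many tissues express, rose by 1.88-fold (change 0.91, standard error 0.12, adjusted p = 0.00363).

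Themis, an adaptor of thymocyte and T cell receptor signalling, gave a signal well above background in every LPR mouse but in 0 of the 3 MRL mice, so that its rise is known only as at least 1.36-fold. The adjusted p of the fit, 8.74e-05 in limma, belongs to values below background and not to this bound. The call of Themis A_55_P1972436 was lost with signals raised to the detection limit (adjusted p = 0.0962) and with normexp background correction (adjusted p = 0.122). Its other 3 probes were not above background on any array. Txk, a Tec family kinase of T cells, was at -3.14, -2.69 and -2.72 in MRL mice and at -2.34, -2.83 and -2.18 in LPR mice. LPR 2 lay below 2 of the MRL mice, and the change of 0.40 did not pass (adjusted p = 0.240, 95% interval -0.09 to 0.89). Prkcq, the protein kinase C of the T cell synapse, had a change of 0.26 (adjusted p = 0.241, 95% interval -0.06 to 0.58) with overlapping groups.

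Of the B cell and myeloid kinases and adaptors, 5 of 7 genes were higher in LPR mice, with a median change of 1.88. Syk, the counterpart of Zap70 in B cells and myeloid cells, was at -2.28, -2.16 and -1.88 in MRL mice and at 0.92, 0.99 and 0.63 in LPR mice. It rose by 7.75-fold (change 2.95, standard error 0.15, adjusted p = 5.57e-05), and the dimmer probe A_55_P2718663 by 6.66-fold. Of the remaining Syk probes, A_66_P138936 rose by 2.67-fold but lost its call without MRL 3, LPR 1, LPR 2 or LPR 3 (adjusted p up to 0.0895), and A_55_P2172867 had no MRL array above background. Btk, the Tec kinase of B cells and myeloid cells, was at -3.94, -3.71 and -2.95 in MRL mice and at -1.03, -1.20 and -0.95 in LPR mice, a 5.56-fold rise (change 2.47, standard error 0.25, adjusted p = 0.00112). In both genes every LPR mouse lay above every MRL mouse, and MRL 3 was the highest of the MRL mice.

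The Src kinases of this group had smaller changes. Fgr, found mainly in myeloid cells, rose by 3.68-fold (change 1.88, standard error 0.18, adjusted p = 0.000755), with LPR mice between -1.29 and -0.62 and MRL mice between -2.92 and -2.77, and a second probe rose by 3.58-fold. Lyn, which starts the signal in B cells and also recruits its inhibitors, rose by 2.35-fold (adjusted p = 0.00293).

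Plcg2, the phospholipase of B cells that makes the calcium-releasing second messenger, was at 1.99, 2.07 and 2.06 in MRL mice and at 2.41, 2.62 and 2.39 in LPR mice. The groups did not overlap, and the rise was 1.35-fold (change 0.43, standard error 0.11, adjusted p = 0.0453). This call was lost with any 1 of the 6 mice left out (adjusted p 0.0648 to 0.125). Blnk, the B cell adaptor that takes the place of Lat and Lcp2, had a change of 0.37 (adjusted p = 0.216, 95% interval -0.06 to 0.79). Its LPR mice at 3.36 to 3.70 overlapped MRL 3 at 3.39.

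Prkcb, the protein kinase C of B cells and myeloid cells, was at -2.70, -2.43 and -0.18 in MRL mice and at 0.97, 0.32 and 0.55 in LPR mice. MRL 3 lay much closer to the LPR mice than to the other MRL mice. The change of 2.38 (standard error 0.63) did not pass (adjusted p = 0.0533). Without MRL 3 it was 3.17 and passed (adjusted p = 0.000433).

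Csk, Bcl10 and Malt1, grouped as the brake kinase and NF-kappaB relay of both receptors, had a median change of 0.34, and of these 3 genes Csk passed. Csk, which phosphorylates the inhibitory site of Src kinases, was at -0.55, -0.53 and -0.72 in MRL mice and at -0.12, 0.13 and -0.10 in LPR mice, a 1.48-fold rise (change 0.57, standard error 0.12, adjusted p = 0.0258). Without MRL 1, MRL 2, MRL 3 or LPR 3 this probe did not pass (adjusted p up to 0.0909), whereas the second Csk probe, which rose by 1.87-fold (adjusted p = 0.00291), passed in each of the 6 fits. Bcl10 and Malt1 form the complex that relays the signal from protein kinase C to NF-kappaB.

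Bcl10 was at 0.83, 0.92 and 0.98 in MRL mice and at 1.20, 1.35 and 1.20 in LPR mice. The groups did not overlap, yet the change of 0.34 did not pass (adjusted p = 0.0788, 95% interval 0.09 to 0.59), nor did that of its second probe. Malt1 was at -0.67, -0.75 and -0.83 in MRL mice and at -0.44, -1.44 and -0.56 in LPR mice, where LPR 2 was the lowest of all 6. Its change was -0.06 (adjusted p = 0.899, 95% interval -0.67 to 0.55), and 3 further probes did not pass either, with changes from -0.28 to 0.21.

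Of the cytoskeletal regulators, 5 of 6 genes were higher in LPR mice, with a median change of 2.98. Vav1, the exchange factor that charges Rac with GTP after receptor engagement, was at -1.66, -1.52 and -0.29 in MRL mice and at 2.02, 1.85 and 1.93 in LPR mice. It rose by 8.53-fold (change 3.09, standard error 0.35, adjusted p = 0.00180). Rac2, the Rac GTPase of blood cells, was at -1.50, -1.41 and -0.08 in MRL mice and at 2.06, 2.30 and 2.03 in LPR mice, an 8.72-fold rise (change 3.12, standard error 0.37, adjusted p = 0.00218). In both genes the LPR mice lay within 0.3 of each other and MRL 3 stood apart from MRL 1 and MRL 2.

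Dock2, the Rac exchange factor of lymphocyte migration, rose by 9.32-fold (change 3.22, standard error 0.23, adjusted p = 0.000220), from -4.56, -5.00 and -4.22 in MRL mice to -1.63, -1.40 and -1.08 in LPR mice. All 3 Dock2 probes were higher. The one at chr11:34502033-34503249 (mm9, minus strand), which joins exons, was above background in LPR mice alone and was at least 4.25-fold higher. Its sequence is shown because it reads spliced Dock2 RNA, with a signal above background in 3 of 3 LPR mice and in 0 of 3 MRL mice. The other Dock2 probes, A_55_P2715446 and A_66_P108087, were above background in 3 of 3 MRL mice. The missing signal of this dim probe thus does not mean that MRL mice lacked Dock2 RNA.
Dock2 A_66_P138212: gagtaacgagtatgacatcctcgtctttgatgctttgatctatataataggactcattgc

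Coro1a, an actin-binding protein of leukocytes, rose by 7.27-fold (change 2.86, standard error 0.26, adjusted p = 0.000609), from -0.24, 0.02 and 0.78 in MRL mice to 2.97, 3.19 and 2.99 in LPR mice. Was, which turns on the Arp2/3 complex and is mutated in Wiskott-Aldrich syndrome, rose by 4.39-fold (change 2.14, standard error 0.19, adjusted p = 0.000541). In Was too, the LPR mice at -0.29 to -0.14 lay above the MRL mice at -2.56 to -1.93. Dock8, an exchange factor for Cdc42, had a change of 0.35 that did not pass (adjusted p = 0.128, 95% interval 0.04 to 0.65). Its 2 further tested probes did not pass, with changes of -0.25 and 0.20.

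Of the phosphatases and inhibitory adaptors, 6 of 7 genes were higher in LPR mice, with a median change of 1.09. Ptprcap, the small protein bound to CD45, was at -2.03, -1.90 and -1.82 in MRL mice and at 0.70, 1.19 and 0.95 in LPR mice, a 7.28-fold rise (change 2.86, standard error 0.15, adjusted p = 5.63e-05). Sla, an adaptor that leads receptor chains to degradation, rose by 6.08-fold (change 2.60, standard error 0.28, adjusted p = 0.00159), and 2 dimmer probes rose by 2.45-fold and 2.96-fold. Its relative Sla2, above background in 1 of 3 MRL mice, rose by 2.12-fold (adjusted p = 0.00911).

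Inpp5d (SHIP1), which removes the phosphate that recruits Btk to the membrane, was at -1.55, -1.26 and -0.70 in MRL mice and at 0.53, 0.61 and 0.66 in LPR mice. The rise was 3.41-fold (change 1.77, standard error 0.21, adjusted p = 0.00250), with no overlap of the groups. Ptpn22, which dephosphorylates Lck and Zap70, was at -1.15, -1.15 and -1.24 in MRL mice and at -0.04, -0.73 and -0.05 in LPR mice. LPR 2 lay below the other LPR mice. The rise of Ptpn22 was 1.88-fold (change 0.91, standard error 0.20, adjusted p = 0.0290), and it passed without LPR 2 (adjusted p = 0.00230) but not with any other 1 mouse left out (adjusted p up to 0.0879).

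Ptpn6 (SHP-1), the phosphatase that inhibitory receptors recruit, rose by 2.12-fold (change 1.09, standard error 0.12, adjusted p = 0.00143), from 0.49, 0.48 and 0.67 in MRL mice to 1.59, 1.77 and 1.54 in LPR mice. Both of its probes that join exons were higher as well, A_55_P2505725 at chr6:124671684-124671838 by 2.17-fold and A_55_P2745580 at chr6:124678979-124682468 by 2.69-fold (mm9, minus strand). A further probe, A_52_P666779 at chr6:124682988-124683047, had a change of 0.07 that did not pass (adjusted p = 0.665, 95% interval -0.18 to 0.33). The sequences of the exon-joining probes are given because they report the same direction from separate parts of the transcript.
Ptpn6 A_55_P2505725: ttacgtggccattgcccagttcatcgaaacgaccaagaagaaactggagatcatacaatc
Ptpn6 A_55_P2745580: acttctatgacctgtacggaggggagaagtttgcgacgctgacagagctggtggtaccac

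Of 19 genes with more than 1 tested probe, 9 had every probe higher, 3 had every probe not passed, and 7 had probes of different call. Over the probes, 52 of the 73 tested were higher, 2 were lower and 19 did not pass, and 11 of the 52 had no MRL array above background. This is set against 6.53% higher and 6.17% lower among all probes tested. Of the 51 tested probes named after a RefSeq transcript, 40 were higher and 1 was lower. Of the 22 others, 12 were higher and 1 was lower. Counting any probe, 28 of the 33 genes had at least 1 probe higher, a count that grows with the number of probes of a gene. The share of all genes was not counted in this way. Prkcq entered through a probe with no MRL array above background. Prkcb entered through A_52_P51355, which did not pass with any mouse but MRL 3 left out.

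The clearest case was Ptprc, the CD45 phosphatase of all leukocytes. Its brightest probe, A_55_P2716276 at chr1:140020575-140020634, is named after an Ensembl transcript, and at 1.59, 1.16 and 1.09 in MRL mice and 1.67, 1.63 and 1.70 in LPR mice its change was 0.39 (adjusted p = 0.137, 95% interval 0.03 to 0.75). The other 5 tested Ptprc probes were all higher. A_52_P677117 at chr1:139960089-139960148, named after the RefSeq transcript, was at -1.20, -1.05 and -0.47 in MRL mice and at 2.24, 1.18 and 2.11 in LPR mice, a 6.73-fold rise (change 2.75, standard error 0.32, adjusted p = 0.00207). A_52_P11901 rose by 7.08-fold and A_55_P2716281 by 8.12-fold, and the remaining 2, with no MRL array above background, were at least 1.77-fold and at least 4.95-fold higher. The place of A_55_P2716276 relative to the exons was not analysed here.

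Prkcb and Lyn had probes that moved in opposite directions. In Prkcb, A_52_P51355 rose by 4.77-fold (adjusted p = 0.0329), although with any mouse but MRL 3 left out it did not pass (adjusted p up to 0.0958). The third Prkcb probe, A_52_P328867, was at -2.22, -2.52 and -2.29 in MRL mice and at -3.52, -3.05 and -2.97 in LPR mice. Each LPR mouse was below each MRL mouse, and MRL 3 did not stand apart. This was a fall, with a change of -0.83 (standard error 0.17, adjusted p = 0.0254), lost without MRL 1 or MRL 3 (adjusted p up to 0.0838). The probe joins exons at chr7:129726005-129727940 (mm9, plus strand), upstream of the other Prkcb probes, A_52_P51355 at chr7:129771906-129771965 and the brightest at chr7:129777841-129777900.
Prkcb A_52_P328867: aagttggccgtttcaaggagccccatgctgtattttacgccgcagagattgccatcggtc

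The brightest Lyn probe, at chr4:3718130-3718189, was at 1.32, 1.44 and 1.83 in MRL mice and at 2.77, 2.68 and 2.84 in LPR mice. A dimmer one, A_65_P04064 at chr4:3740184-3740243, is named after an Ensembl transcript and was at -1.91, -1.67 and -1.86 in MRL mice and at -2.31, -2.53 and -2.16 in LPR mice. Its change of -0.52 (adjusted p = 0.0490) passed narrowly and was lost with any 1 of the 6 mice left out. In Prkcq, 1 of 3 probes was higher, by at least 1.35-fold. In Fyb 2 of 3 were higher. In Skap1, 4 of 6 probes were called higher, but 3 of these had no MRL array above background and so could enter the test only through the LPR mice. One of them, A_55_P2721847, lost its call with any mouse but MRL 3 left out (adjusted p up to 0.0640).

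**Figure D3:**
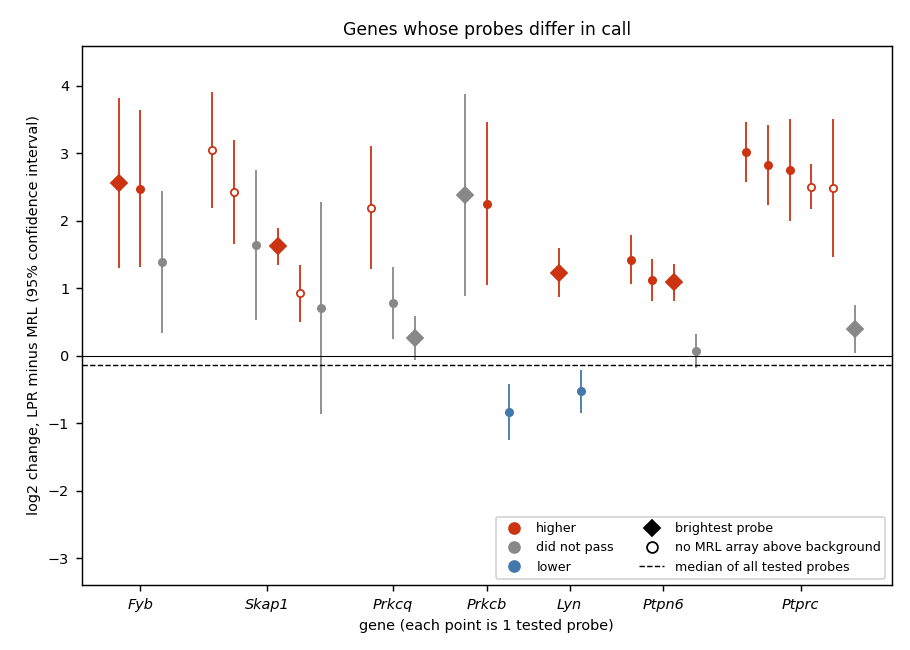
Log2 change between LPR and MRL mice (y axis, bars are 95% confidence intervals) of each tested probe of the 7 genes whose probes differ in call (x axis), with diamonds for the brightest probe of a gene, open circles for probes with no MRL array above background, and a dashed line at the median of all tested probes. The brightest Ptprc probe at 0.39 lies below the other 5, and single probes of Prkcb at -0.83 and of Lyn at -0.52 were lower in LPR mice.

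The genes differed in how the MRL mice were spread. The level of MRL 3 minus the mean of MRL 1 and MRL 2 was 2.38 for Prkcb, 1.65 for Fyb, 1.37 for Rac2, 1.31 for Vav1 and 1.15 for Lcp2, but 0.02 for Lck, -0.09 for Lat and 0.15 for Ptprcap. By role, its median was 0.76 in the cytoskeletal regulators, where 5 of 6 genes exceeded 0.5. It was 0.06 in the T cell kinases and adaptors, where 2 of 10 did. The share of all genes tested with a gap above 0.5 was not counted. Of the macrophage and monocyte markers, 4 of 7 exceeded 0.5, led by Adgre1 with 2.35 and Aif1 with 1.34, and their median was 0.53. Cd68 had 0.16, Csf1r -0.01 and Itgam -0.31. The summed intensity of this list in MRL 3, 31.3, lay between the 27.8 of MRL 2 and the 35.2 of MRL 1. Most of this sum came from the bright Csf1r and Itgam probes, at log2 intensities of 3.76 and 3.57 in MRL 3. Adgre1 was at 0.68 there, so the sum hardly reflects its gap. Of the B cell markers 2 of 6 exceeded 0.5, Cd79a with 0.59 and Cd79b with 0.52. Cd22 had -0.36 and Ms4a1 -0.33, and the median of the B cell markers was 0.01. None of the 7 T cell markers exceeded 0.5, and their median was -0.18. The part of these cells in the values of MRL 3 was not tested. Without MRL 3 the rises of several such genes were larger, 11.97-fold for Rac2, 11.5-fold for Vav1, 14.3-fold for Lcp2 and 8.62-fold for Fyb, while that of Lck was 11.6-fold.

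**Figure D4:**
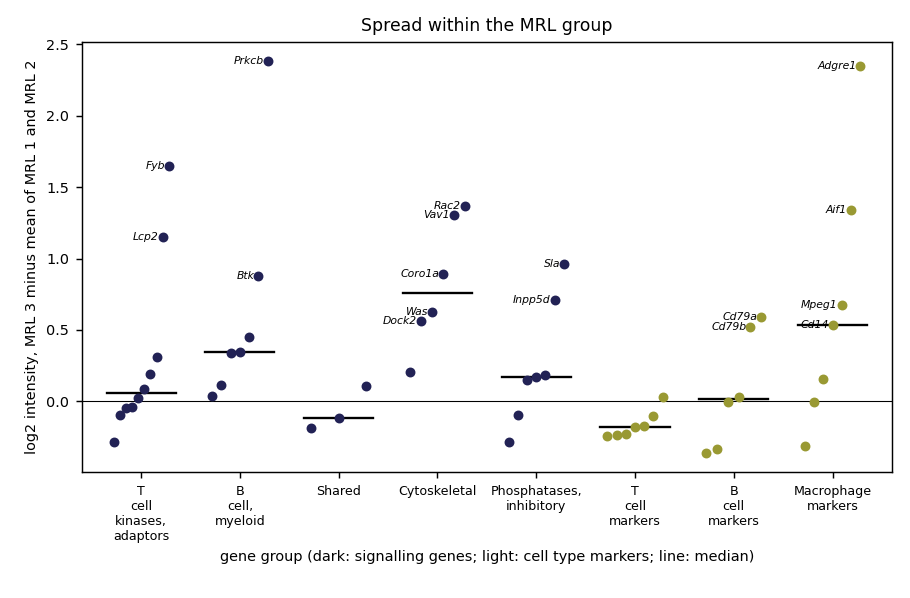
Log2 intensity of MRL 3 minus the mean of MRL 1 and MRL 2 (y axis) for the signalling genes by role (dark points) and for T cell, B cell and macrophage markers (light points), with black lines at the medians. Prkcb at 2.38 and the macrophage marker Adgre1 at 2.35 stand highest, and the T cell markers lie between -0.24 and 0.03.

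Most markers of T cells and of macrophages and monocytes moved with this machinery, and those of B cells did so in part. Of the T cell markers, 6 of 7 were higher in LPR mice. Their summed intensity, as a multiple of the array's 75th percentile, was 3.04 to 3.66 in MRL mice and 12.8 to 14.9 in LPR mice. In MRL mice most of this sum came from the bright Cd247 probe, which did not pass (change 0.16, adjusted p = 0.464 in limma). Of the B cell markers, 3 of 6 were higher and 1 was lower, with sums of 1.55 to 1.67 and 4.27 to 5.52. The lower one was Ms4a1 (CD20), by its brightest probe A_66_P120649, named after an Ensembl transcript (change -0.70, adjusted p = 0.0497), whereas its RefSeq-named probe A_55_P2802151 rose by 31.8-fold (adjusted p = 0.00281). Cd22 did not pass by its brightest probe (change -0.03), which gave the largest part of the B cell sum in MRL mice. Its probe A_51_P448140 rose by 11.1-fold. Pax5 did not pass by its brightest probe either (change -0.36, adjusted p = 0.227 in limma). Of the macrophage and monocyte markers, 6 of 7 were higher, with sums of 27.8 to 35.2 and 55.2 to 61.7. Most of these sums came from Csf1r (change 0.55) and Itgam (change -0.09, did not pass). NK cell markers (2 of 3 tested) and neutrophil markers (3 of 6) also held higher genes. The labelled tissue was borne out by the 8 kidney tubule markers, whose sums were 814 to 867 in MRL mice and 644 to 702 in LPR mice, with 0 higher and 2 lower. At an unadjusted p under 0.05, limma called 0 of the tubule markers higher and 5 lower. Of the 39924 probes tested, 3926 were higher and 8200 lower at this threshold, a count of probes and not of genes. The part of these cells in the changes of the signalling genes was not tested. The arrays lay in 2 columns of the slide, and MRL 1, 2, 3 and LPR 1 shared a column. Within it, the 33 genes had a median difference of 2.13 between LPR 1 and the MRL mean, which rests on 1 LPR mouse.

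The windows around the starts of transcription were read for short motifs of factors active in blood cells. RefSeq windows of 300 bases in GRCm38.p6, from 250 before to 50 after a start, were found for 27 of the 33 genes, 37 windows in all. The ETS core with its flanks, AGGAAGT on either strand, was in 11 of 37 windows (29.7%) and in 9.35% of all 32851 windows. The RUNX core, TGTGGT on either strand, was in 7 of 37 (18.9%) and in 16.8% of all windows, and the TATA box, TATAAA on either strand, in 2 of 37 (5.41%) and in 13.6%. Windows of 1 gene overlapped each other in 2 genes, and no ETS match overlapped a RUNX match. The AGGAAGT genes were Blnk, Dock2, Inpp5d, Lck, Ptpn6, Ptprc, Txk, Vav1 and Was. Of these 9 genes, 6 were higher in LPR mice, with a median change of 1.77, and of the 18 genes with windows but no match 14 were higher, with a median change of 2.13. A match is only a match of letters and says nothing of binding.

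The bases before the start are shown for both starts of Lck, for Vav1 and for Was, chosen because they hold an ETS match. Capitals mark AGGAAGT and TGTGGT on either strand, and the sequences run 5′ to 3′ along the gene. The Lck windows lie on the minus strand, the upstream one at chr4:129573642-129573891 and the downstream one at chr4:129558373-129558622. That of Vav1 lies on the plus strand at chr17:57278850-57279099, and that of Was on the minus strand at chrX:8090492-8090741.
Lck upstream start: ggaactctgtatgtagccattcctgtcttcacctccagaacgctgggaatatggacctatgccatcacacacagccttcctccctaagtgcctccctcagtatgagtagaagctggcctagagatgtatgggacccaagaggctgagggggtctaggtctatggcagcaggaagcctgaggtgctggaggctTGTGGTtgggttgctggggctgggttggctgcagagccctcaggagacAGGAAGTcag
Lck downstream start: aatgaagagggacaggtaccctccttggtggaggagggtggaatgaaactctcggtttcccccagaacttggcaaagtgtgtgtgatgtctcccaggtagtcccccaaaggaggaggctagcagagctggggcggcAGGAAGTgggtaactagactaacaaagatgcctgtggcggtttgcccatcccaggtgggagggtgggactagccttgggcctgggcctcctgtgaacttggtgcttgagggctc
Vav1: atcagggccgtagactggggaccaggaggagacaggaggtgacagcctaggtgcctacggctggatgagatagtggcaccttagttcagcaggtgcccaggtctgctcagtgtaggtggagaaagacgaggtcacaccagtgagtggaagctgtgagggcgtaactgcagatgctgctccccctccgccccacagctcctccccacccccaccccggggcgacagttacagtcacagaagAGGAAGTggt
Was: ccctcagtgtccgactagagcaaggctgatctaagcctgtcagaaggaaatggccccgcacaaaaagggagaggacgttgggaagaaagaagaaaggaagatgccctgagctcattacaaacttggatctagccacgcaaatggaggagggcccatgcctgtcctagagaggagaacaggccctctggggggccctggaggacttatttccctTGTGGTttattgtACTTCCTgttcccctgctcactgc

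The other genes of the pathway behaved less uniformly. Of 110 genes listed beside these 33, 109 were tested, 43 rose in LPR mice, 2 fell and 64 did not pass, with a median change of 0.18. By role, 12 of 22 adaptors and 11 of 21 cytoskeletal genes were higher, but only 6 of 28 genes for second messengers and the nuclear relay, which most cells express. Inhibitors were in between, with 8 of 22 higher and 1 lower, as were kinases, with 6 of 16 higher.

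Among the largest rises with all arrays above background were those of Rhoh, a GTPase that brings Zap70 to the receptor, and Pik3r5, a regulator of phosphoinositide 3-kinase gamma. Rhoh was at -3.76, -3.14 and -3.16 in MRL mice and at -0.01, 0.35 and 0.50 in LPR mice, a 12.4-fold rise with no overlap of the groups (adjusted p = 9.45e-05). Pik3r5 rose by 9.71-fold (adjusted p = 0.00160). The genes that fell were Itpr1, the calcium channel of the endoplasmic reticulum (change -0.55, adjusted p = 0.0161), and Ptpn3, a tyrosine phosphatase (change -0.42, adjusted p = 0.0404). With 1 mouse left out, 0 to 2 of the 109 genes were lower.

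**Figure D5:**
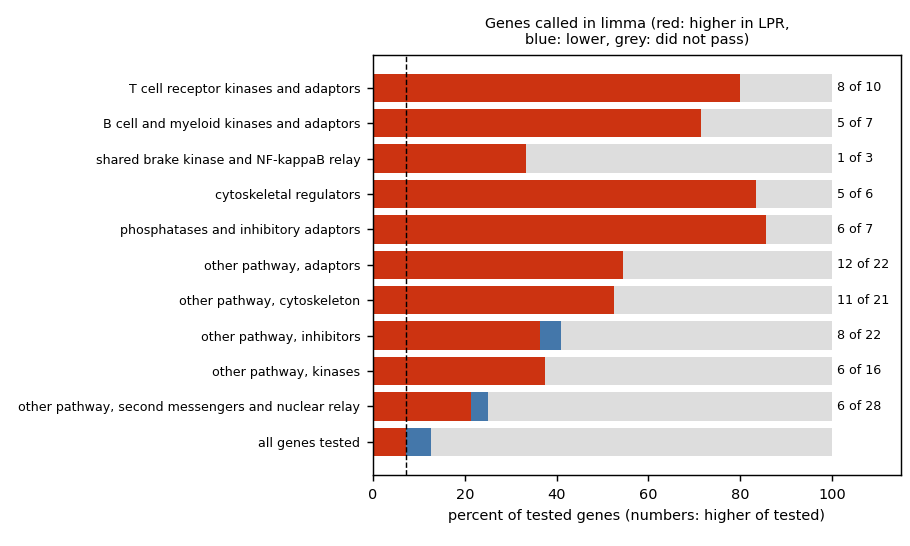
Percent of the tested genes of each role that were higher (red), lower (blue) or did not pass (grey) in limma, for the 33 genes in 5 roles, the other pathway genes in 5 roles and all genes tested, with a dashed line at the 7.12% of all genes that were higher. Among the roles, the share higher runs from 6 of 7 phosphatases and inhibitory adaptors to 6 of 28 second messenger and nuclear relay genes.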

How the data were processed

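Kidney RNA of 3 female MRL and 3 female LPR mice was hybridized to 6 one-colour Agilent SurePrint G3 arrays of 1 slide, 1 mouse per array without pooling. The paper names Trizol for RNA isolation, whereas the labels name the RNeasy Mini Kit. The authors deposited the intensity of each spot from Feature Extraction 12.0.3.1, with background subtracted and no normalization between arrays. The value table the authors deposited holds the ratio of each intensity to its array's 75th percentile and served as an alternative. Probe positions are mm9 per the file headers, and gene names are those of the array.

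Control spots and 73 to 90 outlier spots per array were left out. The log2 intensities minus each array's 75th percentile (706 to 942) were averaged per probe. Of 56605 probes, 39924 had at least 3 of 6 arrays with a signal well above background. These entered limma 3.58.1 (R 4.3.3), and p-values were adjusted by Benjamini-Hochberg at 0.05. Pearson's r between arrays across probes lay at 0.990 to 0.993 for arrays of 1 group and at 0.961 to 0.971 across groups. A probe that no MRL array showed above background got a lower bound, the LPR mean over MRL signals raised to the lowest signal well above background on each array. With 3 mice per group no exact permutation test can give less than 0.1, and none was used. The number of arrays limits the precision.

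All 33 genes are named, with every fall among the other pathway genes and those of their 5 largest rises (above background on all arrays) that are reported here. The genes, lists and tests were chosen with earlier results of these data known. Over 5 simulations of 39924 probes in the same design, limma recovered 245 of 500 probes changed by 1 on the log2 scale. Of those changed by 2 it recovered 430 of 500, with 3 to 9 false calls in each simulation. Far fewer probes were changed in a simulation than were called in the data, and the simulated noise was independent between probes. Recovery and false calls in the data may therefore differ. All 33 symbols and the 53 RefSeq-named probes matched the RefSeq gene table. Figures were drawn with matplotlib 3.10.9. Alternatives were normexp background correction (offset 50), quantile normalization, a median shift, other percentiles and filters, a floor, kept outliers, an intensity trend, slide column or replicate number in the fit, probe means, the methods' t-test, and leaving out each mouse. Using the brightest probe with a RefSeq accession was added after seeing the data.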

Additional observations from a re-analysis of the deposited data

How the results depend on the processing

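Of the 25 calls, 18 held under all 22 alternatives that kept the same probe for each gene. Probe means and the brightest RefSeq probe are not among these 22. Plcg2 lost its call under 12 of the 22, Ptpn22 under 10, Csk under 9, Fyb under 8, Sla2 under 3, Themis under 2 and Fgr under 1. Prkcb passed under 8, Bcl10 under 5, Dock8 under 2 and Ptprc under 1. The number of higher genes was 19 to 28, and 0 were lower under each. The median change of 1.88 was 1.37 with normexp background correction, 2.13 with the slide column in the fit and 2.14 with the brightest RefSeq probe, and 1.81 to 2.04 with 1 mouse left out. Small changes that were not called turned sign, with the cause not tested. Malt1 A_55_P2077068 had 0.31 with the slide column, 0.25 without LPR 2 (range -0.24 to 0.25 with 1 mouse left out) and 0.0029 on linear values, and Malt1 A_55_P2738152 had -0.041 without LPR 3 (range -0.04 to 0.32 with 1 mouse left out). Skap1 A_55_P2059120 had -0.0734 with normexp and -0.11 without MRL 3 (range -0.11 to 1.26 with 1 mouse left out), and Ptpn6 A_52_P666779 had -0.0175 with normexp.

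Of the other pathway genes, 5 were lower with normexp, 1 with the median shift, 1 with the percentile over detected probes, 1 without the filter, 0 with the slide column, and 8 and 10 by the methods' t-test on log2 and linear values without adjustment. Over all probes, 4448 were lower with normexp and 1093 without the filter. With the slide column 1458 were higher and 463 lower. The methods' t-test called 7176 lower on log2 and 7385 on linear values without adjustment, and after it 1736 higher and 1386 lower on log2 and 1444 higher and 1354 lower on linear values. With 1 mouse left out, 760 to 2269 probes and 0 to 2 other pathway genes were lower. With the smaller arm of such fits or a block, fewer samples or degrees of freedom remain.

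Samples of equal number deviated together with correlations of 0.12, 0.02 and 0.01, so the numbers were not taken to pair the mice. With the replicate number as a block, 22 of the 33 genes were higher and 0 lower, 0 other pathway genes were lower, and 1117 probes were lower, and 1 of 3 MRL mice correlated best with its own number.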

Other observations

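Of the 81 probes of these genes, 8 were not tested because fewer than 3 arrays were well above background. Among them were 3 of the 4 Themis probes, 1 of 2 Txk probes, 2 of 5 Dock8 probes, 1 of 4 Sla probes and 1 of 7 Ptprc probes. The Ptprc probe A_55_P2716266 had a signal above background on the array of 1 LPR mouse, and the other 7 in none of the 6 mice. Fat cell markers, which are no part of this pathway, stood apart in 1 LPR mouse: their summed intensity, as a multiple of the 75th percentile, was 3.15 in LPR 3, 22.2 in LPR 1 and 24.5 in LPR 2, against 27.7 to 39.96 in MRL mice. The red cell markers varied between mice as well, with sums of 46.1 to 342 in MRL mice and 259 to 479 in LPR mice. The median level of the 33 genes in LPR 3, at -0.05, lay beside the -0.04 of LPR 1.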
